A study of Mus musculus with 12 samples.

Results

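Pax7-465 is a form of the transcription factor Pax7 that ends at residue 465, so that the OAR motif and a stretch not found in its relative Pax3 are missing, and it was compared here with Pax7 Q+GL+, an isoform that carries both a glutamine (Q) and a glycine-leucine pair (GL) in the DNA-binding paired domain. The 4 RNA-Seq libraries of this comparison, 2 per group, were taken from 12 labelled libraries of the series. Genes with at least 1 FPKM (fragments scaled to the length of the transcript and to the library's total) in at least 2 of the 4 libraries were tested, which gave 12012 of the 16385 genes of the deposited table. Of the 4373 genes not tested, 1289 were listed at 0 in all 4 libraries and 3084 were above 0 in at least 1.

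All groups were pools of AtT-20 cells, which derive from a pituitary tumor of the mouse and resemble corticotropes. Each pool joined many resistant colonies that had been infected with a retroviral vector and selected with Geneticin, and each construct was expressed from the CMV promoter with Flag tags at both ends. The groups used were Pax7-465 and Q+GL+, with Q-GL- and Q-GL+ as a second pair and Pax3 as a further group, 2 libraries each. The study's supplementary text describes its mutants as made in Pax7 Q+GL-. The label of Pax7-465 does not state the paired domain, so that the missing C terminus and a missing GL pair cannot be told apart in a difference from Q+GL+ cells. Cells of the Q+GL- isoform and control cells without Pax7 were not analysed here. A pool of tumor cells with a viral promoter is not a pituitary melanotrope, and the values describe these pools only.

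Pax7 is a pioneer transcription factor, able to engage sites in closed chromatin that then become open enhancers. In the pituitary intermediate lobe it directs cells that make pro-opiomelanocortin (POMC) to the melanotrope fate, while cells of the anterior lobe without it become corticotropes. Melanotropes contain the prohormone convertase PC2, encoded by Pcsk2, which cuts the POMC product ACTH further, to give alpha-melanocyte-stimulating hormone, whereas corticotropes release ACTH itself.

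The DNA tested for Pax7 binding in this system is shown first, since the genes beside it are among those compared. The study's list of primers, in mm10 coordinates, gives an amplicon called Pioneer near Pcsk2 at chr2:143399750-143399829, in no annotated gene and 146406 bases upstream of the start of Pcsk2, and another at Mybpc1 at chr10:88603126-88603205, in an intron 1947 bases inside the gene, where an exon of the gene model Gm48752 also lies. An amplicon called Constitutive lies at chr17:47729736-47729832, inside an intron of Pgc and 7294 bases upstream of the start of Tfeb, and another at chr7:101466827-101466959, in an intron of Pde2a 45136 bases inside the gene. The primers that delimit them are given 5′ to 3′, forward and then reverse.
Pcsk2 Pioneer, forward: gacgtcagcactgtatttc
Pcsk2 Pioneer, reverse: tattggtcacggtcagtag
Mybpc1 Pioneer, forward: cacaaaccaaccctttcatc
Mybpc1 Pioneer, reverse: taataagtcaggtgctaggc
Tfeb Constitutive, forward: atactgggtgtggtcttg
Tfeb Constitutive, reverse: taggattccaaggctcttc
Pde2a Constitutive, forward: actcagcattgagggttc
Pde2a Constitutive, reverse: tgaataaggatgtgacaggag

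The introduced transcript was present in both groups. Pax7 (ENSMUSG00000028736) was at 109 and 113 FPKM in Pax7-465 cells, against 99.9 and 102 FPKM in Q+GL+ cells, and at 0.159 and 0.161 FPKM in Pax3 cells. The difference between Pax7-465 and Q+GL+ cells did not pass the test (log2 fold change 0.13, standard error 0.07, adjusted p = 0.478). Pomc, the hormone precursor of both cell types, was at 7303 and 8395 FPKM in Pax7-465 cells, against 6146 and 6756 FPKM in Q+GL+ cells (log2 fold change 0.28, standard error 0.14, adjusted p = 0.457). Tbx19, which encodes the factor Tpit shared by corticotropes and melanotropes, was at 117 and 124 FPKM in Pax7-465 cells, against 121 and 133 FPKM in Q+GL+ cells (log2 fold change -0.07, adjusted p = 0.841). Pomc and Tbx19 were thus present, and being shared they do not tell corticotropes from melanotropes. Of 10 corticotrope markers listed, 8 were in the table and 7 were tested. Of these 7, 0 passed in either direction, beside 1.04% of all genes, with a median log2 fold change of 0.09. The corticotrope marker Crhr1 was too low to be tested, at 0.244 and 0.193 FPKM in Pax7-465 cells, against 0.392 and 0.284 FPKM in Q+GL+ cells.

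The 4 libraries had summed FPKM of 429676 and 452714 in Pax7-465 cells, against 431988 and 456879 in Q+GL+ cells. Across the tested genes they correlated at r = 0.986 within Pax7-465, 0.989 within Q+GL+ and 0.981 to 0.985 between the groups. The read depth is unknown. No source states whether the biological replicates of a group go back to separate infections, and each p-value therefore reflects how far the libraries of a group differ, which may be technical. Markers of other cells, apart from the myogenic ones, were listed at sums of 0.0468 to 10.7 FPKM per library and list. The myogenic markers, which include Mybpc1, summed to 14.05 and 15.8 FPKM in Pax7-465 cells, against 8.54 and 9.80 FPKM in Q+GL+ cells. Of 11 markers of the other anterior pituitary cells 3 were in the table, with summed levels of 0.0838 and 0.106 FPKM in Pax7-465 cells, against 0.0511 and 0.0468 FPKM in Q+GL+ cells. Of 8 markers of macrophages and leukocytes 3 were in the table, summing to 0.571 and 0.275 FPKM in Pax7-465 cells, against 1.39 and 1.20 FPKM in Q+GL+ cells. Of 9 fibroblast markers 4 were in the table, summing to 0.640 and 0.888 FPKM, against 0.784 and 0.703 FPKM. Of 7 endothelial markers 2 were in the table, summing to 3.50 and 4.34 FPKM in Pax7-465 cells, against 2.01 and 2.95 FPKM in Q+GL+ cells. The part of endothelial markers in the results was not tested. Of 7 markers of pituitary stem cells 3 were in the table, summing to 4.06 and 3.80 FPKM in Pax7-465 cells, against 4.70 and 5.09 FPKM in Q+GL+ cells. Of 13 markers of pigment and neural crest cells 5 were in the table, summing to 10.1 and 10.0 FPKM, against 9.72 and 10.7 FPKM.

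The comparison asks how the transcriptome of cells with the C-terminally deleted Pax7 differs from that of cells with a full-length isoform that carries GL. In Pax7-465 cells 81 genes rose and 44 fell relative to Q+GL+ cells, at a Benjamini-Hochberg adjusted p under 0.05 from limma on log2(FPKM + 1) values. These are 125 of 12012 genes, or 1.04%, with 0.674% upward and 0.366% downward. An unadjusted p under 0.05 was reached by 1460 genes. Most changes were modest, with a median size of 0.65 on the log2 scale among the higher genes and 0.61 among the lower ones, and 17 higher and 4 lower genes reached a log2 fold change of at least 1. The median log2 fold change of all tested genes was -0.01. In each of the 81 higher and 44 lower genes the 2 libraries of 1 group lay beyond both libraries of the other, which held for 19.6% of all tested genes upward and 23.5% downward. The calls were made on these same libraries and favour such separation. Here and for single genes below, the lack of overlap is therefore a description and no added support. Of the 81 higher genes 10 were under 1 FPKM in both Q+GL+ libraries, and of the 44 lower genes 4 were so in both Pax7-465 libraries, so that they entered the test only through the group where they are higher. Of the higher genes 77 were protein coding, and of the lower genes 37. The number of calls depended on each library: without Pax7-465 replicate 1 or 2 there were 41 calls each, without Q+GL+ replicate 1 there were 32 and without replicate 2 there were 36.

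**Figure D1:**
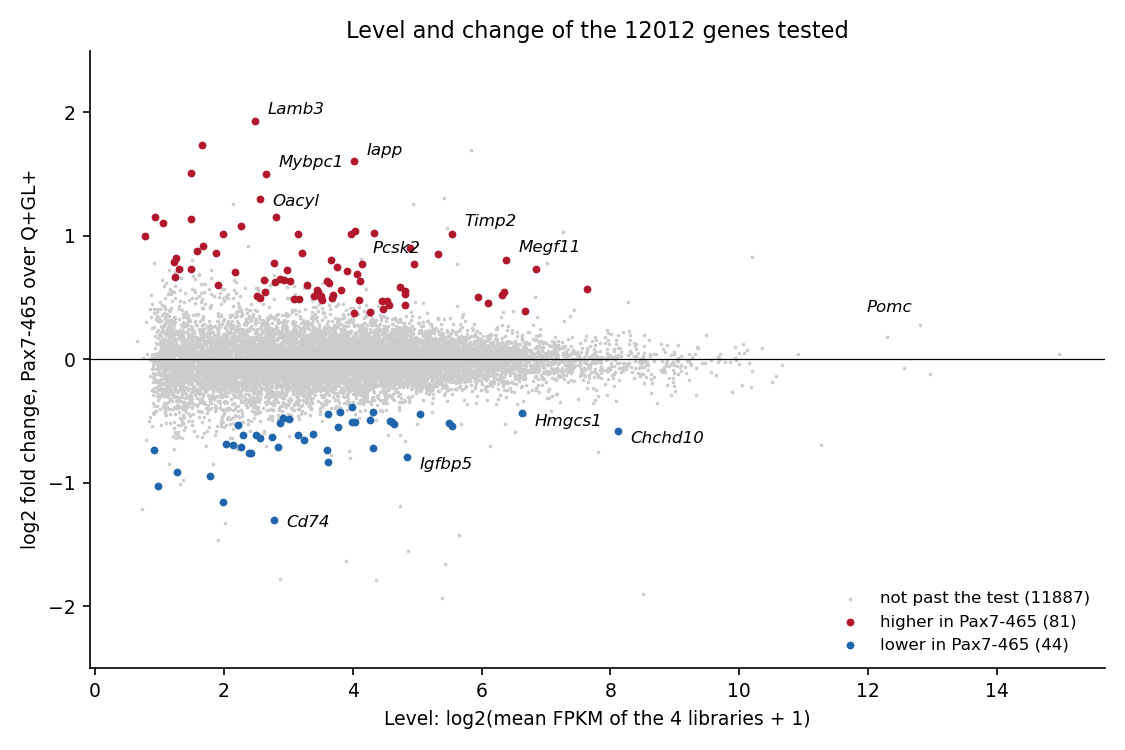
Log2 fold change of Pax7-465 over Q+GL+ (y axis) against mean level, as log2(FPKM + 1), of the 4 libraries (x axis), 1 point per tested gene, with the 81 higher and 44 lower genes in colour and 7 genes beyond the axis, 1 of them called (Gm23136, a small nucleolar RNA). The called genes extend from low levels up to that of Chchd10 (mean 221 FPKM in Pax7-465 cells, against 330 FPKM in Q+GL+ cells). Most stay within a log2 fold change of 1 of the zero line.

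Pcsk2 and several other melanotrope genes rose in Pax7-465 cells. Pcsk2 (ENSMUSG00000027419, chr2:143546156-143816285, plus strand), the gene of PC2, was at 20.8 and 22 FPKM in Pax7-465 cells, against 11.7 and 12.5 FPKM in Q+GL+ cells. Both Pax7-465 libraries were above both Q+GL+ libraries, a ratio of means of 1.77 (log2 fold change 0.77, standard error 0.08, adjusted p = 0.000682). The Q-GL- cells held still more, 35.8 and 36.6 FPKM, against 16.2 and 15.4 FPKM in Q-GL+ cells, while Pax3 cells held 17.2 and 18.9 FPKM, between Pax7-465 and Q+GL+ cells.

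Mybpc1 (ENSMUSG00000020061, chr10:88518279-88605152, minus strand), which encodes a myosin-binding protein C and has the second Pioneer amplicon in its intron, was at 7.66 and 9.02 FPKM in Pax7-465 cells, against 2.16 and 2.41 FPKM in Q+GL+ cells. The groups did not overlap and the ratio of means was 3.65 (log2 fold change 1.5, standard error 0.12, adjusted p = 0.000114). The Pax7-465 values were close to the 9.11 and 9.49 FPKM of Q-GL- cells, and the Q+GL+ values close to the 3.34 and 2.66 FPKM of Q-GL+ cells and the 2.33 and 2.56 FPKM of Pax3 cells. Oacyl (ENSMUSG00000046610), which encodes an O-acyltransferase-like protein and serves as a melanotrope marker, was at 7.12 and 7.65 FPKM in Pax7-465 cells, against 2.52 and 2.31 FPKM in Q+GL+ cells (log2 fold change 1.3, standard error 0.10, adjusted p = 0.000117). In the second pair Oacyl reached 11.1 and 10.6 FPKM with Q-GL-, against 4.34 and 4.11 FPKM with Q-GL+, and in Pax3 cells 1.69 and 2.08 FPKM.

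Timp2, an inhibitor of matrix metalloproteinases, was at 58.8 and 63.8 FPKM in Pax7-465 cells, against 29.2 and 30.3 FPKM in Q+GL+ cells (log2 fold change 1.02, standard error 0.08, adjusted p = 8.58e-05). This was a ratio of 2.06 with no overlap, and the Pax7-465 level was again near that of Q-GL- cells, at 65.8 and 63.1 FPKM, against 34.2 and 33.7 FPKM in Q-GL+ cells. Rgs4, a regulator that shortens G-protein signals, was at 5.68 and 5.37 FPKM in Pax7-465 cells, against 2.15 and 2.03 FPKM in Q+GL+ cells (log2 fold change 1.08, standard error 0.11, adjusted p = 0.000477), far below the 19.9 and 20.5 FPKM of Q-GL- cells. Ttyh1, a membrane protein of the tweety family, was at 31.3 and 44.4 FPKM in Pax7-465 cells, against 18.3 and 20.8 FPKM in Q+GL+ cells (log2 fold change 0.90, standard error 0.16, adjusted p = 0.0289). The Pax7-465 libraries of Ttyh1 differ from each other more than those of Pcsk2, Mybpc1, Oacyl, Timp2 and Rgs4, and its call was lost without Pax7-465 replicate 2 and without either Q+GL+ replicate, with adjusted p up to 0.178 and a log2 fold change of 0.65 to 1.14.

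Not every gene of this kind was higher. Chgb, the gene of the secretory granule protein chromogranin B, was at 460.3 and 485 FPKM in Pax7-465 cells, against 506 and 543 FPKM in Q+GL+ cells (log2 fold change -0.15, adjusted p = 0.621), although it was at 694 and 759 FPKM in Q-GL- cells, against 382 and 352 FPKM in Q-GL+ cells. Ahsg, the gene of the secreted glycoprotein fetuin-A, was at 322 and 352 FPKM in Pax7-465 cells, against 294 and 293 FPKM in Q+GL+ cells (log2 fold change 0.20, adjusted p = 0.462). Of the 8 melanotrope genes listed because they were higher without GL in earlier results of these data, 6 rose in Pax7-465 cells and 0 fell, with a median log2 fold change of 0.96. Over all genes 0.674% were called higher. All 8 passed upward in Q-GL- over Q-GL+, with a median of 1.07, but that list was chosen on those libraries. Since earlier results of these data were known, neither count is independent evidence of its direction.

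Megf11 and Eln behaved in another way. Megf11, which encodes a membrane protein with EGF-like repeats, was at 99.2 and 111 FPKM in Pax7-465 cells, against 60.8 and 58.6 FPKM in Q+GL+ cells (log2 fold change 0.80, standard error 0.09, adjusted p = 0.00187). Eln, the gene of elastin, was at 21.2 and 20.8 FPKM in Pax7-465 cells, against 9.44 and 9.92 FPKM in Q+GL+ cells (log2 fold change 1.04, standard error 0.09, adjusted p = 0.000310). Neither passed in the second pair, where with Q-GL-, against Q-GL+, Megf11 was at 80.3 and 92.2 FPKM, against 93.4 and 90.7 FPKM, and Eln at 12.9 and 15.6 FPKM, against 16.4 and 16.1 FPKM. The difference between the 2 comparisons passed the limma interaction test for Megf11 (log2 0.90, adjusted p = 0.00836) and for Eln (log2 1.23, adjusted p = 0.00154). Megf11 and Eln were listed as not following GL in earlier results of these data, so their interaction is not independent evidence. Kit (log2 fold change 0.17, adjusted p = 0.570) and Mest (log2 fold change -0.13, adjusted p = 0.610), the other members of the list of 4 melanotrope genes that did not follow GL in earlier results, did not pass. Of the 5 tested melanotrope markers, Pcsk2, Oacyl and Megf11 rose and Pax7 and Pomc did not pass, with a median log2 fold change of 0.77. Over all genes 0.674% were called higher, and these markers were chosen with earlier results of these data known. In bulk RNA, more cells with a transcript and more transcript per cell cannot be told apart.

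**Figure D2:**
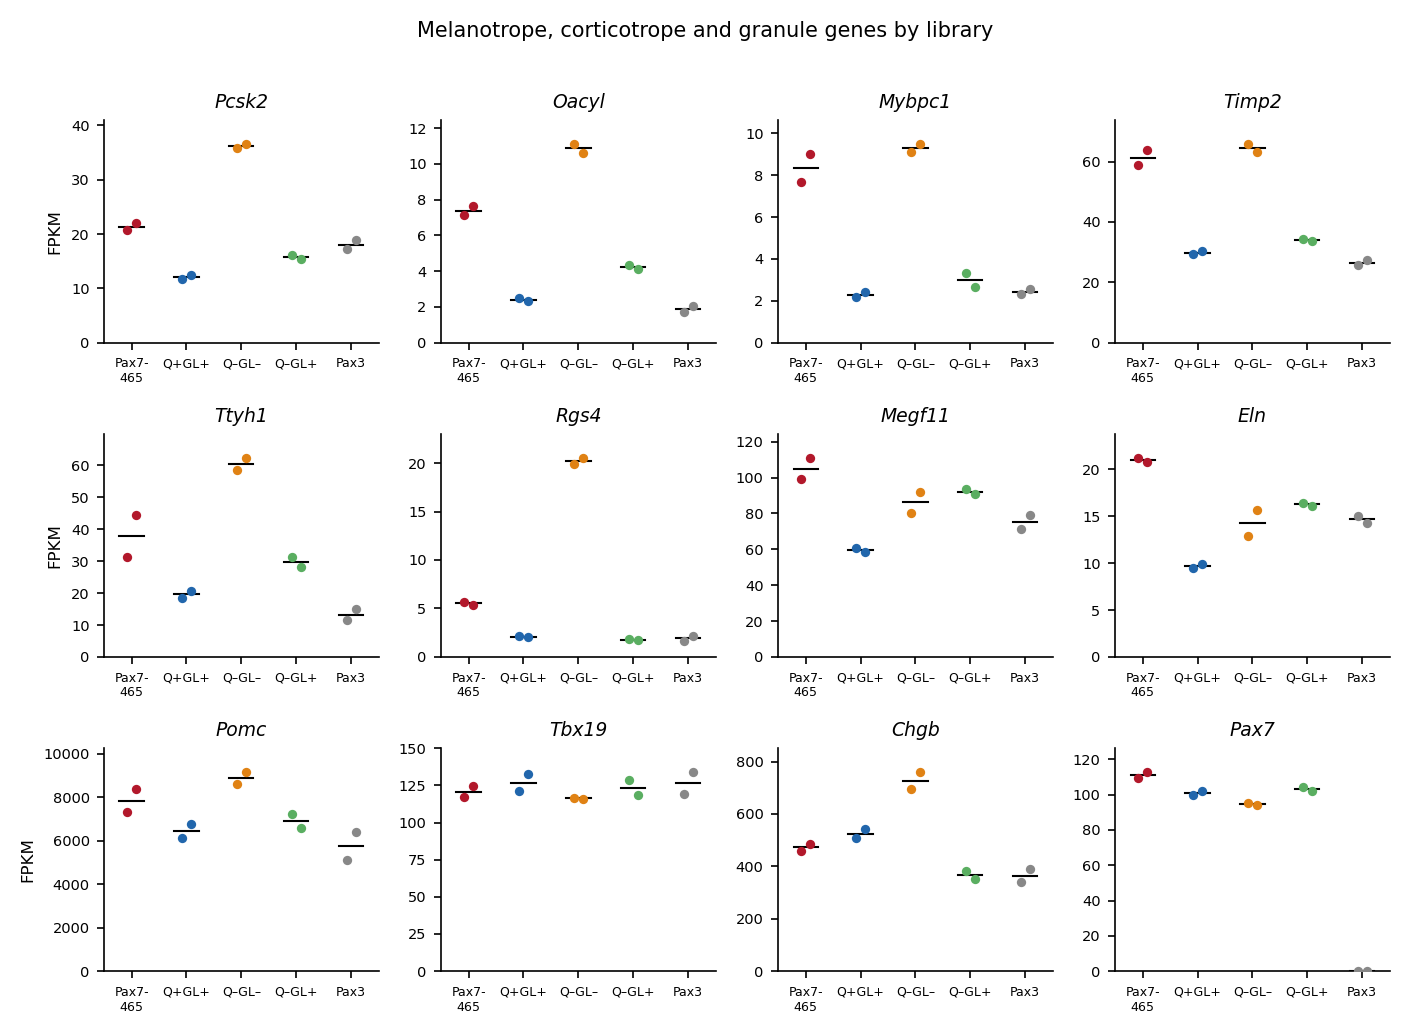
FPKM of 12 genes by group, with Pax7-465 and Q+GL+ followed by the other groups, 1 point per library and a bar at the mean of 2 libraries. Pcsk2, Oacyl, Mybpc1, Timp2, Ttyh1, Rgs4, Megf11 and Eln are higher in both Pax7-465 libraries than in both Q+GL+ libraries, while Pomc, Tbx19, Chgb and Pax7 did not pass the test.

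Of the genes beside the Constitutive amplicons, Tfeb did not pass the test and Pde2a could not be tested. Tfeb, a regulator of lysosomal genes, was at 8.47 and 8.53 FPKM in Pax7-465 cells, against 6.4 and 6.04 FPKM in Q+GL+ cells, without overlap but not past the test (log2 fold change 0.40, standard error 0.09, adjusted p = 0.0706). Pde2a, a phosphodiesterase, was listed at 0 in all 4 libraries. Pgc, the gene of pepsinogen C in whose intron the amplicon near Tfeb lies, was looked up after its values were seen and was at 2.1 and 2.05 FPKM in Pax7-465 cells, against 0.815 and 0.889 FPKM in Q+GL+ cells (log2 fold change 0.73, standard error 0.12, adjusted p = 0.0130), a gene tested only through its Pax7-465 libraries since both Q+GL+ libraries are under 1 FPKM. Lmcd1, a LIM domain protein for which no amplicon is shown here, was at 6.24 and 5.91 FPKM in Pax7-465 cells, against 4.85 and 4.97 FPKM in Q+GL+ cells (log2 fold change 0.26, adjusted p = 0.300). Although the primer list calls the Pde2a amplicon Constitutive, the paper treats Pde2a and Lmcd1 as loci that Pax7 activates transcriptionally, without pioneer action.

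The 250 bases before the annotated start of 3 of the genes that rose are printed because the homeodomain of Pax7 binds sequences with a TAAT core and its paired domain others, so that the letters themselves can be compared (RefSeq, GRCm38.p6, 5′ to 3′ on the strand of the gene, with TAAT or its reverse complement ATTA in capitals). They lie at chr6:142298175-142298424, plus strand, for Iapp, at chr10:88605153-88605402, minus strand, for Mybpc1 and at chr2:143545883-143546132, plus strand, for Pcsk2.
Iapp: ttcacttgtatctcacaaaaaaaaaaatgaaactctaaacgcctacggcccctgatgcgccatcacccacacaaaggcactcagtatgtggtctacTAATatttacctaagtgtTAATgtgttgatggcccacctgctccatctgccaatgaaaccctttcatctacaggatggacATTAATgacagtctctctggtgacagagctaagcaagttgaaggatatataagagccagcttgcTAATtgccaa
Mybpc1: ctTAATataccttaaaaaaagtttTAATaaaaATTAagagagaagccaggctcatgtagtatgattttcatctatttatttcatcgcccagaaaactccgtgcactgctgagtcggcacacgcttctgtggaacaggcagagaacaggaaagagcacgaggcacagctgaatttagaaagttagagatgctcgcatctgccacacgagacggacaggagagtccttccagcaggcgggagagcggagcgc
Pcsk2: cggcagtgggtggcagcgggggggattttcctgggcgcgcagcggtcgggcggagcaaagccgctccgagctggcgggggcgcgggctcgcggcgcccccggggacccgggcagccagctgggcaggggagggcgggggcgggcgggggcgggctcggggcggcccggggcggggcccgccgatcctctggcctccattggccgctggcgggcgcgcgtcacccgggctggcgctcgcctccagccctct
The Iapp window held 5 matches to TAAT counted on both strands and that of Mybpc1 3, while that of Pcsk2, with 82.4% G and C against 42.8% for Iapp and 46.4% for Mybpc1, held 0. None of the 3 held TAATTA, a pair of facing TAAT cores that overlap with TAAT matches, or GTCACGC, letters of a paired domain motif. Over the genes that matched a promoter, TAAT occurred in 24 of 61 higher genes (39.3%) and 7 of 29 lower genes (24.1%), beside 38.2% of the 9044 tested genes and 55.4% of 27025 promoters in all. TAATTA occurred in 2 of the 61 (3.28%) and 2 of the 29 (6.9%), beside 2.3% of tested genes and 4.98% of all promoters, and GTCACGC in 1 (1.64%) and 1 (3.45%), beside 3.64% and 1.83%. These matches describe the letters near the starts and say nothing of binding, nor of the distant sites above.

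Lamb3, Lipn and Iapp had the largest increases on the log2(FPKM + 1) scale among the genes named by the rule. Lamb3 (ENSMUSG00000026639), the beta 3 chain of the basement membrane laminin 332, was at 6.83 and 8.92 FPKM in Pax7-465 cells, against 1.19 and 1.43 FPKM in Q+GL+ cells, a ratio of means of 6.02 (log2 fold change 1.93, standard error 0.14, adjusted p = 8.58e-05). Iapp (ENSMUSG00000041681), the peptide hormone amylin of pancreatic beta cells, was at 23.1 and 23.6 FPKM in Pax7-465 cells, against 6.69 and 7.31 FPKM in Q+GL+ cells, a ratio of 3.34 (log2 fold change 1.61, standard error 0.09, adjusted p = 8.04e-06). The 2 libraries of each group lay close together in Iapp, which had the smallest adjusted p of the genes named by the rule.

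Lipn, a lipase, was at 3.84 and 3.96 FPKM in Pax7-465 cells, against 0.434 and 0.503 FPKM in Q+GL+ cells (log2 fold change 1.74, standard error 0.12, adjusted p = 8.58e-05). Cabp7, a calcium-binding protein, was at 2.76 and 3.59 FPKM in Pax7-465 cells, against 0.462 and 0.459 FPKM in Q+GL+ cells (log2 fold change 1.51, standard error 0.14, adjusted p = 0.000373). Lipn, Cabp7, Lipc and Klk14 were under 1 FPKM in both Q+GL+ libraries and entered the test only through the Pax7-465 libraries, where they are higher, so that a difference was built into their selection. For Lipn and Cabp7 the ratios of means, 8.32 and 6.91, are larger than the fold changes on the log2(FPKM + 1) scale. Lipc, the hepatic lipase, was at 1.73 and 1.94 FPKM in Pax7-465 cells, against 0.243 and 0.396 FPKM in Q+GL+ cells (log2 fold change 1.1, standard error 0.14, adjusted p = 0.00472), and lost its call without Q+GL+ replicate 1 (adjusted p = 0.0515). Klk14, a kallikrein-related serine peptidase, was at 3.51 and 2.27 FPKM in Pax7-465 cells, against 0.601 and 0.905 FPKM in Q+GL+ cells (log2 fold change 1.14, standard error 0.17, adjusted p = 0.0112), and lost its call without Pax7-465 replicate 1 or Q+GL+ replicate 1 (adjusted p up to 0.0909). Both lipases and Klk14 passed upward in the second pair too, at a log2 fold change of 2.25 for Lipn, 1.13 for Lipc and 2.42 for Klk14.

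Hmcn2, the gene of the matrix protein hemicentin 2, was at 9.01 and 8.33 FPKM in Pax7-465 cells, against 3.53 and 3.17 FPKM in Q+GL+ cells (log2 fold change 1.15, standard error 0.12, adjusted p = 0.000590). It leaned the other way in the second pair, at 6.37 and 6.27 FPKM in Q-GL- cells, against 8.09 and 9.94 FPKM in Q-GL+ cells. Txnrd2, the mitochondrial thioredoxin reductase, was at 10.8 and 10.9 FPKM in Pax7-465 cells, against 5.32 and 4.45 FPKM in Q+GL+ cells (log2 fold change 1.02, standard error 0.15, adjusted p = 0.00789), and its call was lost without either Pax7-465 replicate or Q+GL+ replicate 2 (adjusted p up to 0.0697). The gene model 2210407C18Rik was at 25.4 and 26.4 FPKM in Pax7-465 cells, against 10.8 and 13.9 FPKM in Q+GL+ cells (log2 fold change 1.02, standard error 0.12, adjusted p = 0.00177). Gm13713, annotated as an antisense transcript, was at 1.61 and 1.66 FPKM in Pax7-465 cells, against 0.401 and 0 FPKM in Q+GL+ cells (log2 fold change 1.16, standard error 0.23, adjusted p = 0.0425). Under 1 FPKM in both Q+GL+ libraries, it too was tested only through the Pax7-465 libraries. Its call was lost without each of the 4 libraries (adjusted p up to 0.281), and since the strand setting of the counting is not given in the sources used here, its reads and those of the gene opposite cannot be told apart.

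The lower genes included Cd74, Igfbp5 and Gap43. Gm23136, a small nucleolar RNA (chr9:64176661-64176759), was listed at 0 in both Pax7-465 libraries, against 90.5 and 74 FPKM in Q+GL+ cells, and at 0 in the Q-GL- and Pax3 libraries, against 161 and 68.1 FPKM in Q-GL+ cells. A value of 0 in this table can be a failed estimate, since Junb and Ctsz, genes that most cells use, are also listed at 0, and no fold is given. Cd74 (ENSMUSG00000024610), which encodes the MHC class II invariant chain, was at 2.63 and 3.28 FPKM in Pax7-465 cells, against 8.13 and 9.38 FPKM in Q+GL+ cells (log2 fold change -1.31, standard error 0.13, adjusted p = 0.000477), so that Q+GL+ cells held 2.97 times the level. The order was the opposite in the second pair, with 7.28 and 8.45 FPKM in Q-GL- cells, against 1.09 and 1.13 FPKM in Q-GL+ cells, and the difference between the comparisons passed the interaction test (log2 -3.37, adjusted p = 9.27e-06). Cd74 is abundant in leukocytes. Of 8 markers of macrophages and leukocytes listed, 3 were in the table, Lyz2, Cd68 and Csf1r. Each was under 1 FPKM in all 4 libraries, and none was tested. Their sums were 0.571 and 0.275 FPKM in Pax7-465 cells, against 1.39 and 1.20 FPKM in Q+GL+ cells. Their sums in the second pair are not given here, and a part of leukocytes in the Cd74 result was not tested.

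Igfbp5, which binds insulin-like growth factors, was at 21 and 19 FPKM in Pax7-465 cells, against 35.4 and 35.1 FPKM in Q+GL+ cells (log2 fold change -0.79, standard error 0.08, adjusted p = 0.000477). It was likewise lower in Q-GL- cells, at 17.7 and 18.7 FPKM, against 28.9 and 29 FPKM in Q-GL+ cells. Gap43, a growth cone protein of neurons, was at 13.1 and 15.3 FPKM in Pax7-465 cells, against 24.2 and 23.6 FPKM in Q+GL+ cells (log2 fold change -0.72, standard error 0.11, adjusted p = 0.00854), and its call was lost without Pax7-465 replicate 1 or either Q+GL+ replicate (adjusted p up to 0.0739). Dhx58, a cytoplasmic RNA sensor of the RIG-I family, was at 3.02 and 2.95 FPKM in Pax7-465 cells, against 5.98 and 5.51 FPKM in Q+GL+ cells (log2 fold change -0.76, standard error 0.10, adjusted p = 0.00472), with its call lost without Q+GL+ replicate 1 (adjusted p = 0.0559). Nxf7, of the family of RNA export factors, was at 6.87 and 8.9 FPKM in Pax7-465 cells, against 13.9 and 15.6 FPKM in Q+GL+ cells (log2 fold change -0.84, standard error 0.11, adjusted p = 0.00485), with its call lost without Q+GL+ replicate 2 (adjusted p = 0.0528).

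Krt4, a keratin, was at 3.01 and 2.75 FPKM in Pax7-465 cells, against 4.8 and 6.43 FPKM in Q+GL+ cells (log2 fold change -0.76, adjusted p = 0.0350). Pcdhb10, a protocadherin of the beta cluster, was at 2.64 and 2.62 FPKM in Pax7-465 cells, against 5.17 and 4.74 FPKM in Q+GL+ cells (log2 fold change -0.71, adjusted p = 0.00920). Polr3gl, a subunit of RNA polymerase III, was at 7.8 and 8.51 FPKM in Pax7-465 cells, against 13.3 and 15.1 FPKM in Q+GL+ cells (log2 fold change -0.73, adjusted p = 0.00844). The same rule also named, among the lower genes, AI662270 (log2 fold change -1.16), Gm10247 (-1.02), Gm13736 (-0.95), 2010001A14Rik (-0.92), Gm37376 (-0.73) and Lrrc61 (-0.71), mostly gene models without a known role. Of these, Gm10247, 2010001A14Rik and Gm37376 were under 1 FPKM in both Pax7-465 libraries and entered the test only through the Q+GL+ libraries. Each of these 9 genes lost its call without at least 1 library, with adjusted p up to 0.277 for Krt4, 0.0947 for Pcdhb10, 0.0839 for Polr3gl, 0.11 for AI662270, 0.142 for Gm10247, 0.134 for Gm13736, 0.266 for 2010001A14Rik, 0.187 for Gm37376 and 0.216 for Lrrc61. Over the 41 called genes that the rule names, 16 stayed past the test without each library in turn and 12 lost the call whichever of the 4 was left out.

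**Figure D3:**
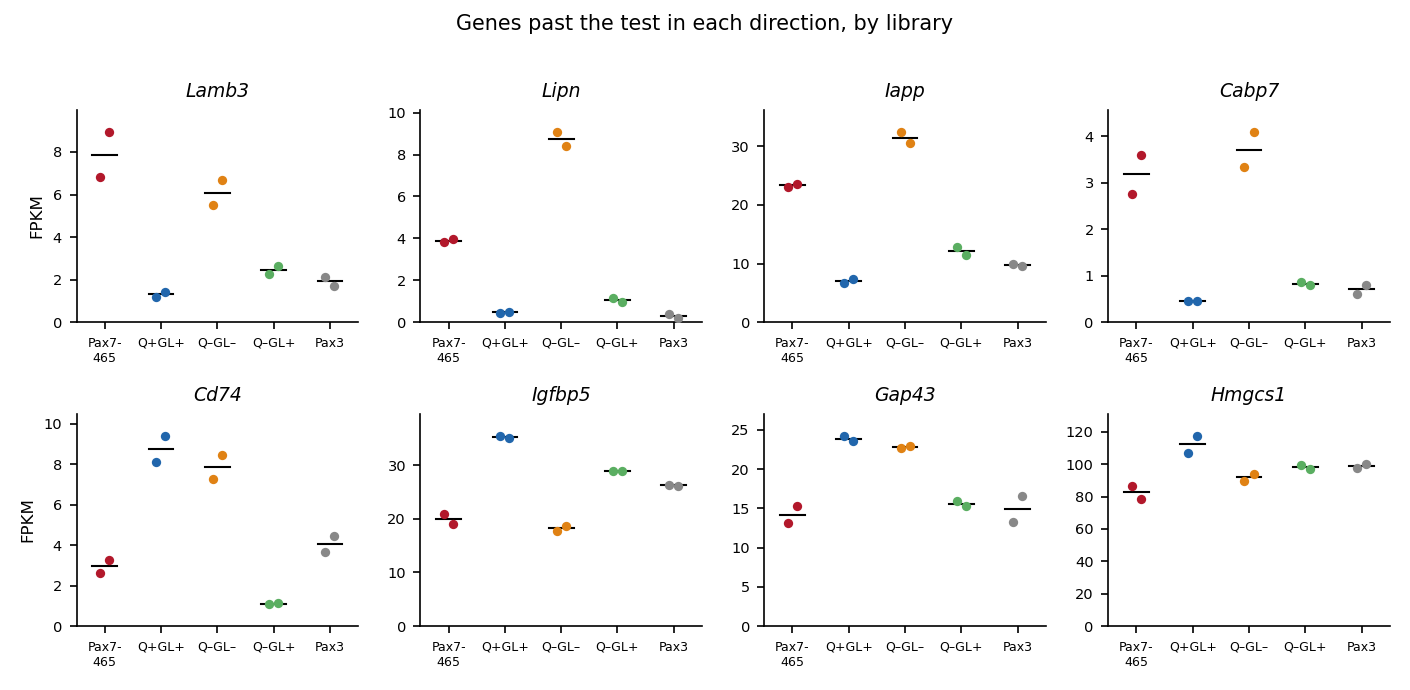
FPKM of 8 called genes (Lamb3, Lipn, Iapp, Cabp7, Cd74, Igfbp5, Gap43, Hmgcs1) by group, 1 point per library and a bar at the mean of 2 libraries. In each panel both Pax7-465 libraries lie on 1 side of both Q+GL+ libraries, and Cd74 and Gap43 show the opposite order in Q-GL- and Q-GL+ cells.

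Among prohormone-processing enzymes and granins Pcsk2 alone passed the test, beside 1.04% of all genes called in either direction. Failing the test does not show that a gene was unchanged. On simulated data 37 of 100 genes with a log2 change of 0.5 were recovered. Of 12 prohormone-processing enzymes tested, 1 rose and 0 fell, with a median log2 fold change of 0.05. Pcsk1, the convertase PC1/3 that corticotropes use, was at 318 and 348 FPKM in Pax7-465 cells, against 288 and 309.9 FPKM in Q+GL+ cells (log2 fold change 0.15, adjusted p = 0.590), and Cpe, carboxypeptidase E, at 572 and 641 FPKM, against 568 and 606 FPKM (log2 fold change 0.04, adjusted p = 0.937). Pam, which amidates peptide ends, had a log2 fold change of 0.06 (adjusted p = 0.865) in Pax7-465 over Q+GL+ and 0.77 (adjusted p = 0.000711) in Q-GL- over Q-GL+. Of 5 granins, 0 passed, with a median of -0.08, and Scg2, or secretogranin II, had a log2 fold change of -0.08 (adjusted p = 0.815), against 0.75 (adjusted p = 0.00129) in the second pair.

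Of 23 exocytosis proteins 1 rose, Sytl2, which binds Rab27 on secretory vesicles, at 11.8 and 11.1 FPKM in Pax7-465 cells, against 7.26 and 8.17 FPKM in Q+GL+ cells (log2 fold change 0.51, standard error 0.09, adjusted p = 0.0269). Its order was the opposite in the second pair, 6.8 and 6.88 FPKM in Q-GL- cells, against 14.5 and 15 FPKM in Q-GL+ cells, and its call was lost without each of the 4 libraries (adjusted p up to 0.177). None of 18 Rab GTPases of secretion, 29 ion channels or 22 genes of cyclic AMP signalling passed, with medians of -0.03, 0.09 and -0.03. Of all tested genes, 1.04% were called in either direction. Of 11 G-protein signalling regulators, Rgs4 alone passed.

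Of 31 genes of cholesterol and fatty acid synthesis tested, 2 fell and 0 rose, beside 0.366% of all genes called lower. A negative log2 fold change was found in 29 of the 31, beside 53.2% of all genes, 16 were lower at an unadjusted p under 0.05, beside 6.6% of all genes, and the median was -0.24, beside -0.01. Hmgcs1, which makes HMG-CoA, was at 86.7 and 78.7 FPKM in Pax7-465 cells, against 107 and 117 FPKM in Q+GL+ cells (log2 fold change -0.44, standard error 0.08, adjusted p = 0.0309). Nsdhl, a later enzyme of sterol synthesis, was at 16.5 and 15.4 FPKM in Pax7-465 cells, against 20.4 and 23.3 FPKM in Q+GL+ cells (log2 fold change -0.43, standard error 0.09, adjusted p = 0.0477). Mvd, a decarboxylase of the mevalonate pathway, did not pass (log2 fold change -0.41, adjusted p = 0.0584). The count of 2 was 0 without each of the 4 libraries, with adjusted p up to 0.29 for Hmgcs1 and 0.358 for Nsdhl, and 13 with quantile normalization. In Q-GL- over Q-GL+ cells 0 of the 31 passed, with a median of -0.06.

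Antigen presentation and interferon genes held 1 call each, beside 0.366% of all genes called lower and 53.2% of all genes with a negative log2 fold change. Of 13 genes of MHC class I presentation and Cd74, Cd74 alone fell, 11 were negative and the median was -0.15, beside B2m at a log2 fold change of -0.18 (adjusted p = 0.460). Of 19 genes of the type I interferon response Dhx58 alone fell, 16 were negative and the median was -0.14. The 20 glycolysis genes held 0 calls, with 18 negative and a median of -0.16 that was -0.05 without Q+GL+ replicate 2. Of 26 genes of protein folding in the endoplasmic reticulum 1 fell, Edem1, which sends misfolded glycoproteins to degradation, at 9.48 and 10.8 FPKM in Pax7-465 cells, against 15.4 and 15.2 FPKM in Q+GL+ cells (log2 fold change -0.55, standard error 0.11, adjusted p = 0.0337), and without each of the 4 libraries it did not pass (adjusted p up to 0.201).

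Of 20 genes of the extracellular matrix, integrins and proteases, Timp2, Eln and Hmcn2 rose and 0 fell, with a median of 0.01. Beside this and the following counts, 0.674% of all tested genes were called higher and 0.366% lower. Lamb3 is not in that list. Of 24 cell adhesion molecules Cntn1, the neuronal contactin 1, rose, at 1.95 and 1.99 FPKM in Pax7-465 cells, against 0.587 and 0.871 FPKM in Q+GL+ cells (log2 fold change 0.79, standard error 0.13, adjusted p = 0.0194), tested only through its Pax7-465 libraries since both Q+GL+ libraries are under 1 FPKM. Of 16 Notch pathway genes Hey1, a target of Notch signals, rose, at 8.78 and 9.11 FPKM in Pax7-465 cells, against 4.74 and 6.14 FPKM in Q+GL+ cells (log2 fold change 0.63, standard error 0.12, adjusted p = 0.0282). Both calls were lost without some libraries, that of Cntn1 without each of the 4 (adjusted p up to 0.14) and that of Hey1 without either Pax7-465 replicate or Q+GL+ replicate 1 (adjusted p up to 0.179). Of 6 neuropeptides and hormones Iapp rose, of 3 myogenic markers Mybpc1 rose, and 0 of 3 pigment and neural crest markers passed.

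None of 36 chromatin remodelers and partners of pioneer factors passed, with a median log2 fold change of -0.00154 and a range of -0.18 to 0.28. Beside this and the following counts, 1.04% of all tested genes were called in either direction. Smarca4, the ATPase Brg1 of the SWI/SNF complex, had a log2 fold change of 0.12 (adjusted p = 0.620), and Ash2l, a subunit of H3K4 methyltransferases, at -0.04 (adjusted p = 0.938). Tbp, the TATA-binding protein, was at 19.3 and 17.6 FPKM in Pax7-465 cells, against 18.7 and 19.1 FPKM in Q+GL+ cells (log2 fold change -0.03, adjusted p = 0.943). The 15 tested transcription factors of pituitary lineages held 0 calls, as did 36 cell cycle genes, 39 cytosolic ribosomal proteins, 43 subunits of the respiratory chain and ATP synthase, 32 lysosomal genes, 12 immediate early genes and 16 genes of Wnt and BMP signalling.

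**Figure D4:**
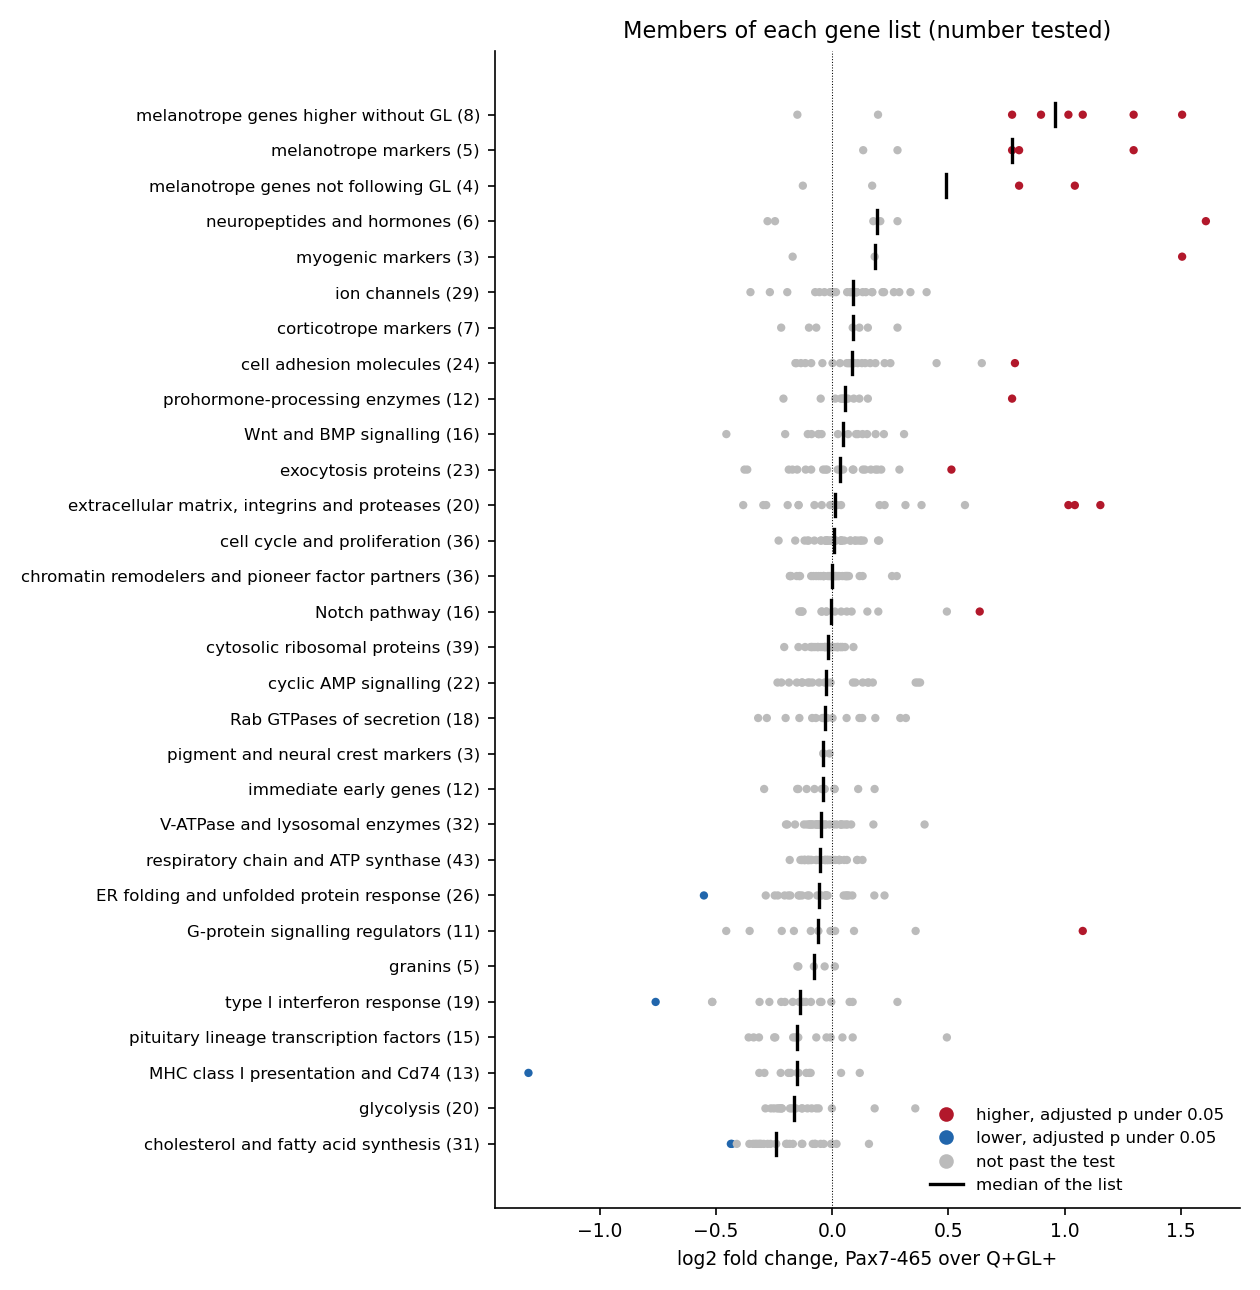
Log2 fold change of Pax7-465 over Q+GL+ (x axis) for the tested members of 30 gene lists (rows), 1 point per gene, with genes past the test in colour and the median of each list marked. The 3 melanotrope lists have medians of 0.77 for the markers and, for the lists chosen on earlier results of these data, 0.96 (higher without GL) and 0.49 (not following GL), while the cholesterol and fatty acid list has a median of -0.24 and most other lists centre near zero.

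The second pair, Q-GL- over Q-GL+, differs in GL and shares no library with the first, and it gave 388 calls (3.23%), of which 283 were higher and 105 lower. Of the 81 genes higher in Pax7-465 cells, 32 (39.5%) passed upward in the second pair too, beside 2.36% of all genes. These 32 are 11.3% of the 283, and 5 of the 81 passed downward, beside 0.874% of all genes. Of the 44 genes lower in Pax7-465 cells, 3 (6.82%) passed downward there, beside 0.874% of all genes. These 3 are 2.86% of the 105, and 7 of the 44 passed upward, beside 2.36% of all genes. Both comparisons come from 1 fit with a shared variance per gene, so a gene of small spread passes more easily in both. The shares are therefore a description. The median log2 fold change of Q-GL- over Q-GL+ was 0.28 over the 81 genes and 0.09 over the 44, beside 0.04 over all tested genes. Leaving out 1 library at a time gave 128 to 161 calls in place of 388. Across the 12012 genes the 2 fold changes correlated at r = 0.192, where genes are not independent replicates.

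The 81 higher genes had a median level of 12.3 FPKM in Pax7-465 cells, against 7.94 FPKM in Q+GL+ cells, beside medians of 11.7 with Q-GL-, 10.2 with Q-GL+ and 8.61 with Pax3. The 44 lower genes had a median of 6.17 FPKM in Pax7-465 cells, against 11.1 FPKM in Q+GL+ cells, beside medians of 8.6 with Q-GL-, 7.1 with Q-GL+ and 7.82 with Pax3. The size of the difference itself, tested as an interaction of the 2 comparisons, passed for 174 of 12012 genes (1.45%; 0.591% positive and 0.857% negative), and for 30 of the 81 (37%) and 22 of the 44 (50%). Since the 81 and 44 genes were called in 1 of the 2 comparisons, these shares are a description. Mybpc1, Oacyl and Iapp did not pass the interaction test, with log2 differences of 0.14 (adjusted p = 0.759), 0.11 (adjusted p = 0.775) and 0.29 (adjusted p = 0.281). Rgs4 and Klk14 rose in both comparisons and by less in Pax7-465 cells, at log2 -1.86 (adjusted p = 0.000379) and -1.28 (adjusted p = 0.0302). For Pcsk2 the difference was -0.37 (adjusted p = 0.154).

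**Figure D5:**
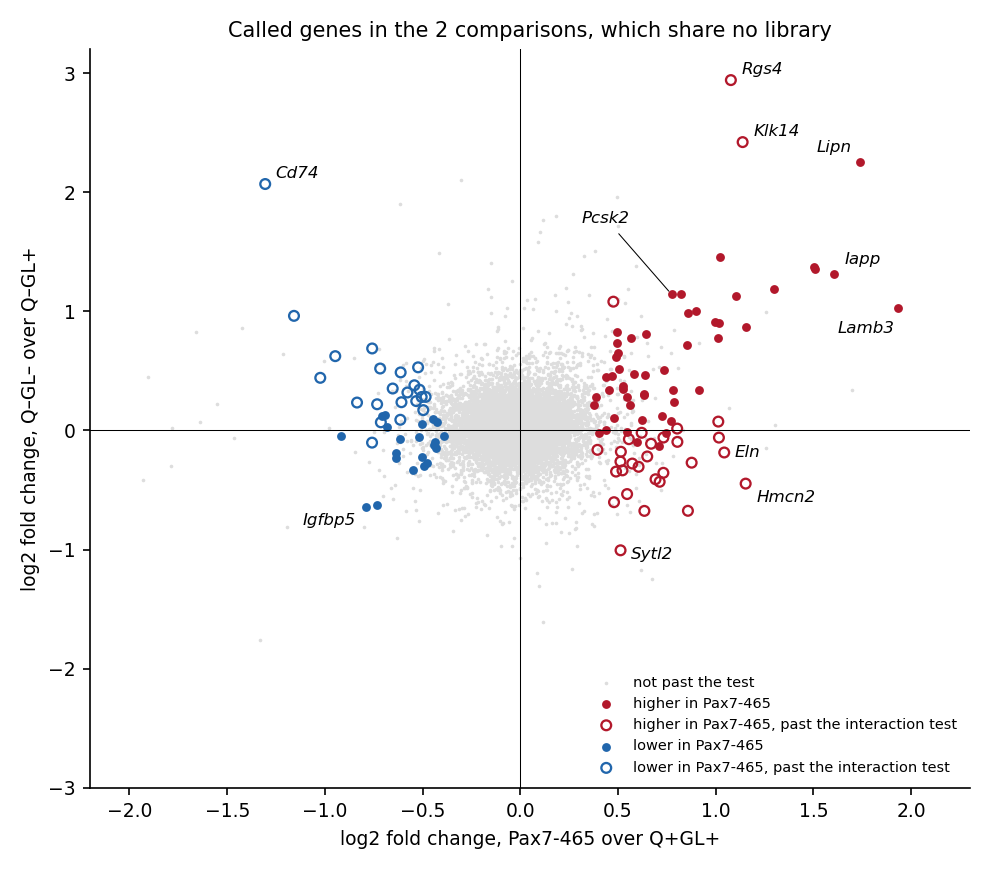
Log2 fold change of Q-GL- over Q-GL+ (y axis) against that of Pax7-465 over Q+GL+ (x axis), 1 point per tested gene, with called genes of the Pax7-465 comparison in colour and open circles where the interaction test was passed. Lamb3, Lipn, Iapp and Pcsk2 lie in the upper right as filled points, Eln, Hmcn2 and Sytl2 lie below the horizontal line and Cd74 at the upper left.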

How the data were processed

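RNA-Seq of AtT-20 pools was analysed in 12 labelled libraries, of which 10 in 5 groups entered the fit, and 4 columns without a labelled sample were left aside. The authors deposited FPKM, obtained with Trimmomatic, TopHat2 (Ensembl annotation of GRCm38, mm10) and HOMER, in versions not given for RNA-Seq in the sources used here. RNA of each replicate was depleted of ribosomal RNA, and libraries were strand-specific and paired-end. The authors used edgeR on counts, but the table holds FPKM, so the branch planned for normalized values was followed. Genes reaching 1 FPKM in 2 or more of the 4 compared libraries were tested as log2(FPKM + 1) by limma with trend and robust variance, with a term for each group (5 residual degrees of freedom). Fold changes on this scale understate changes of low genes. Calls have a Benjamini-Hochberg adjusted p under 0.05 over 12012 genes. The software was limma 3.58.1 and statmod 1.5.0 under R 4.3.3, and numpy 2.4.6, pandas 2.3.3 and matplotlib 3.10.9 under Python 3.11.15.

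The 2 libraries labelled NoTag were left out of the fit, as their labels give no isoform and 733 genes are above 0 only there. The comparison, the 36 gene lists and the rule for named genes were chosen with earlier results of these data known. Named genes are those the paper's text names and Mybpc1 and Tfeb from its primer list. Added were up to 15 per direction with the largest fold change among calls without overlap and with a mean of at least 1 FPKM. Further ones were up to 4 per list with the smallest adjusted p and up to 5 per direction of the interaction, besides all melanotrope, corticotrope, granin and processing genes. Depth is unknown: the commonest ratios between low values of the libraries, 0.933 to 1.06, hold for at most 8.88% of them. The same-numbered replicates of the compared groups did not deviate together (r = -0.01), so they were not treated as pairs. Tried alternatives were other normalizations, filters, pseudocounts, fits, a replicate block and each library left out. Simulated data held 12012 genes and the 10 libraries of the fit, with independent normal noise. Changes were given to the Pax7-465 libraries, only in genes with a mean log2(FPKM + 1) of at least 1. Of these, 89 of 100 genes with a log2 change of 1 and 37 of 100 with 0.5 were recovered, with 3 false among 129 calls. Sequences came from RefSeq (GRCm38.p6) and the study's primer list.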

Additional observations from a re-analysis of the deposited data

Results flagged for a closer look

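The limma interaction test was passed by 30 of 153 tested named genes, at an adjusted p under 0.05 over 12012 genes. In these 30 the change in Pax7-465 over Q+GL+ cells differed from that in Q-GL- over Q-GL+ cells. Among all 12012 tested genes 174 passed it (1.45%). Some named genes were chosen by the interaction itself, and others by a large fold change of Pax7-465 over Q+GL+. The count of 30 was thus partly set by that choice and is a description only. The differences below are the log2 fold change of Pax7-465 over Q+GL+ minus that of Q-GL- over Q-GL+, with 2 libraries in each of the 4 groups. They were positive for 10 genes and negative for 20.

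The difference was positive for genes that rose in Pax7-465 cells but were not higher past the test in Q-GL- cells: Hmcn2 (1.6), Sytl2 (1.52), Gm14267 (1.31), Eln (1.23), Bcam, a laminin receptor (1.08), Txnrd2 (1.08) and Megf11 (0.90). Bcam was at 12.4 and 12.3 FPKM in Pax7-465 cells, against 8.35 and 8.78 FPKM in Q+GL+ cells, and at 9.01 and 8.75 FPKM in Q-GL- cells, against 14.1 and 13.9 FPKM in Q-GL+ cells, and its call in Pax7-465 over Q+GL+ was lost without each of the 4 libraries (adjusted p 0.09 to 0.14). Gm14267 overlaps the gene model Gm11469 on the same strand, and the 2 cannot be counted apart with certainty. It was positive also for 3 genes not past the test in Pax7-465 over Q+GL+: Trp53i11 (1.43), Hes1, a Notch target (1.19), and Tac4, a tachykinin precursor (1.06).

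The difference was negative for genes that fell in Pax7-465 cells: Cd74 (-3.37), AI662270 (-2.12), Gm13736 (-1.57), Gm10247 (-1.47), Krt4 (-1.45), Gap43 (-1.24), Nxf7 (-1.07), Polr3gl (-0.95), Pcdhb10 (-0.78) and Dhx58 (-0.66). It was negative for Rgs4 (-1.86) and Klk14 (-1.28), which rose in both comparisons. It was negative, too, for genes that did not pass in Pax7-465 over Q+GL+ cells: Pygm, the muscle glycogen phosphorylase (-1.62), Tmem132b (-1.55), Chgb (-1.13), Serpine2, a serine protease inhibitor (-1.12), Fam135b (-1.03), Fzd2, a Wnt receptor (-1.0), Scg2 (-0.83) and Pam (-0.71). Leaving out 1 library at a time gave 55 to 108 interaction calls in place of 174.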

How the results depend on the processing

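For Pax7-465 over Pax7 Q+GL+ the 125 calls (81 higher, 44 lower) became 278 (157 higher, 121 lower) with quantile normalization and 83 (54 higher, 29 lower) in a fit of only the 2 groups compared, and median centring gave 73 lower genes. Requiring a log2 fold change of at least 1 left 21 calls (17 higher, 4 lower). Leaving out 1 library at a time gave 32 to 41 calls, with 21 to 34 higher and 5 to 16 lower, in a fit that lets the lone library vary like the other groups. For Pax7 Q-GL- over Pax7 Q-GL+ the 388 calls became 720 with quantile normalization, 919 with only the groups compared, 39 at that fold change and 128 to 161 with 1 library left out. The 174 interaction calls became 418, 63 at that fold change and 55 to 108 with 1 library left out. The causes were not tested, beyond the fewer libraries or the stricter threshold. With a replicate block there were 131 calls (86 higher, 45 lower), 411 in the second pair and 167 for the interaction, and a pseudocount of 0.1 gave 121, no filter 113, a filter of 5 FPKM 104, no trend 149, no robust option 107 and all 12 libraries 168. Of 41 called named genes 15 passed under every alternative, and 0 changed direction. Between 5 and 7 of the 8 melanotrope genes higher without GL passed under the alternatives, while the calls among cholesterol genes moved between 0 and 13. The 2 libraries per group and the unknown depth limit the calls.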

Other observations

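Of the 125 called genes, 8 stand in 4 pairs that are adjacent in the order of the tested genes and moved in the same direction. They are Pcdhb9 with Pcdhb10 and Nxf7 with Gprasp1 among the lower genes. Among the higher genes they are Gm14267 with Gm11469 and Sat1 with Acot9. Apart from Pcdhb10, Nxf7 and Gm14267 these names came from the positions of the called genes after their values were seen. The pair Gm14267 and Gm11469 overlaps on 1 strand. The gap was 7754 bases for Pcdhb9 and Pcdhb10, 45993 for Sat1 and Acot9 and 143955 for Nxf7 and Gprasp1. Untested genes within these gaps were not looked for. The share of such pairs among all tested genes was not computed, so the count of 4 is a description only.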
